A study of Mus musculus with 6 samples.

Results

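Skeletal muscle genes were followed through 6 RNA-seq libraries of mouse subcutaneous white adipose tissue (scWAT). The set held 35 genes of the muscle sarcomere, its calcium handling and its energy metabolism, out of 55401 genes counted. They were chosen by name as genes known for muscle fibers, with earlier results of these data in hand. Each was matched to its count by gene symbol. The tissue came from male mice aged 8 weeks and kept at room temperature. The 3 control animals carry floxed Yap and Taz alleles without Cre, and are labelled WT (the study's methods call them YT-FF). In the 3 YT-AKO animals the same floxed alleles (Yapfl/fl/Tazfl/fl) are combined with AdipoqCre, a Cre recombinase driven by the promoter of a gene of mature adipocytes. Each library was made from whole fat tissue, so RNA from any cell type in the depot was counted, and fewer cells of a type and less RNA per cell cannot be told apart.

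A skeletal muscle fiber is packed with sarcomeres, in which thick filaments of myosin pull on thin filaments of actin. Troponin on the thin filament senses calcium that the ryanodine receptor releases and the SERCA pump takes back. Fast, glycolytic fibers and slow, oxidative fibers build the same machine from different isoforms of myosin heavy chain, myosin light chain and troponin. Creatine kinase, enolase and glycogen phosphorylase of muscle feed the machine with ATP. White fat has its own isoforms of several of these enzymes, and thermogenic fat and muscle share a set of mitochondrial genes, among them Cox7a1, Cox8b and Fabp3.

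The fast myosin heavy chains lie side by side on mouse chromosome 11 (build mm10, plus strand), with Myh2 at chr11:67171027-67197517, Myh1 at chr11:67200052-67224575 and Myh4 at chr11:67238029-67260446. Myh4 encodes the heavy chain of the fastest fibers, Myh1 that of intermediate fast fibers and Myh2 that of the fast oxidative fibers. Their RefSeq promoter windows (GRCm38.p6, 250 bases before to 50 bases after the start) are printed because Myh4 carried most of the heavy chain signal in every library and its neighbours very little. Acta1, skeletal muscle actin (chr8:123891769-123894751, minus strand), is shown beside them as the member with the highest level in every library. Capitals mark the motifs TATAAA and CAGCTG, searched on both strands.
Myh2 (chr11:67170777-67171076, plus strand): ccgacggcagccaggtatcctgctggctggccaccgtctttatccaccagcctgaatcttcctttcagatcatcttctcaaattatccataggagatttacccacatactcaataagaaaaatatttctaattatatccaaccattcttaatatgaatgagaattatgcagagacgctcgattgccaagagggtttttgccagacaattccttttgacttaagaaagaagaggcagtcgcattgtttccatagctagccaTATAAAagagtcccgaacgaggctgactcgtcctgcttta
Myh1 (chr11:67199852-67200151, plus strand): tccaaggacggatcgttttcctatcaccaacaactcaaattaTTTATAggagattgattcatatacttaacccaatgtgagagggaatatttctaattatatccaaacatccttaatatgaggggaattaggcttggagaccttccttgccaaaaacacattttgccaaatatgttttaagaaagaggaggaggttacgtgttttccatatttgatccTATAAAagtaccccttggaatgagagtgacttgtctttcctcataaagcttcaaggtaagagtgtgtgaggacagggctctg
Myh4 (chr11:67237562-67237861, plus strand): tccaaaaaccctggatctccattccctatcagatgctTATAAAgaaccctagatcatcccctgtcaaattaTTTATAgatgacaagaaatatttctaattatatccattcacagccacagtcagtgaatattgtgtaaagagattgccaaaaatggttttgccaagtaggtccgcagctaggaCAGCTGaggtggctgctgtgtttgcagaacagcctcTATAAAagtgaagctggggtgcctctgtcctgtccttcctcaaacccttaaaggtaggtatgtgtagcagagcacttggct
Acta1 (chr8:123894726-123895025, minus strand): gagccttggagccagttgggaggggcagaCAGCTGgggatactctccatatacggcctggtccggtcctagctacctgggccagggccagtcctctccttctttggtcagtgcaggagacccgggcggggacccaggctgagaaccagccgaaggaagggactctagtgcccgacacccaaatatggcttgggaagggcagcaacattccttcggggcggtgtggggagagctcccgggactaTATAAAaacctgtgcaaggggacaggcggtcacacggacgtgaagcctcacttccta
A window was found for 28 of the 35 members, and some members had several. The 28 members had 35 windows in all. TATAAA was in 7 of them (20%) against 13.6% of all 32851 windows, and the windows of the 3 fast heavy chain genes were among those 7. CAGCTG, the form of the CANNTG motif that muscle transcription factors are known to favour, was in 18 windows (51.4%) of 15 members against 16.3% of all windows, and of the windows printed here only those of Myh4 and Acta1 held it. CANNTG in any form, which includes every CAGCTG, was in 29 windows (82.9%) of 24 members against 72.3% of all windows. These matches describe letters in a window and not bound sites.

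The libraries held 17740987 to 21838493 counted fragments. Of the floxed genes, Yap1 had 1622, 1300 and 1295 counts in the WT libraries and 649, 492 and 529 in the YT-AKO libraries, a log2 fold change of -0.98 ± 0.17 (SE; edgeR quasi-likelihood test, adjusted p = 0.0179). Wwtr1, which encodes TAZ, had 1818, 1729 and 1918 counts in WT and 3015, 2253 and 2716 in YT-AKO, and it rose by 0.89 ± 0.18 (adjusted p = 0.0220). The Wwtr1 counts thus go against the label of a deletion, but they were summed over all exons and do not isolate the deleted ones. By immunoblot the study reported a clear loss of YAP and TAZ protein in scWAT of YT-AKO mice. Every direction below is that of the libraries labelled YT-AKO. The summed level of 6 adipocyte markers was 13069 to 18084 TPM, the transcript share of a library scaled by gene length, in WT and 15077 to 17094 in YT-AKO. Marker sums of B cells (803 to 991 TPM in WT, 386 to 458 in YT-AKO), Schwann cells (221 to 313 against 124 to 144) and endothelium (303 to 338 against 90.8 to 208) were lower in every YT-AKO library, and their part in the results below was not tested. YT-AKO 2 stood apart from the other libraries, with 20501 genes detected against 22810 to 24576. All YT-AKO libraries were shifted towards short genes (Spearman's rho of the log2 CPM ratio to WT with exon length over 16807 genes -0.325, -0.394 and -0.323), a description over genes of the same libraries.

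Muscle transcripts were present in all 6 libraries, and their amount differed more between libraries than between the groups. The 35 members summed to 1415, 540 and 676 TPM in WT 1, WT 2 and WT 3. The sums were 7344, 865 and 565 TPM in YT-AKO 1, YT-AKO 2 and YT-AKO 3. YT-AKO 1 therefore held 5.19 times the sum of WT 1, the highest control, and 13.0 times that of YT-AKO 3, while YT-AKO 2 and YT-AKO 3 lay inside the control range. On the log2 scale the groups differed by 0.93 (YT-AKO over WT, exact permutation test, two-sided, p = 0.60). With 3 libraries against 3 the p-value of this test cannot go below 0.10. Without YT-AKO 1 the difference was -0.20. Members made up 0.734% of all TPM in YT-AKO 1 and 0.0540% to 0.142% in the other 5 libraries.

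**Figure D1:**
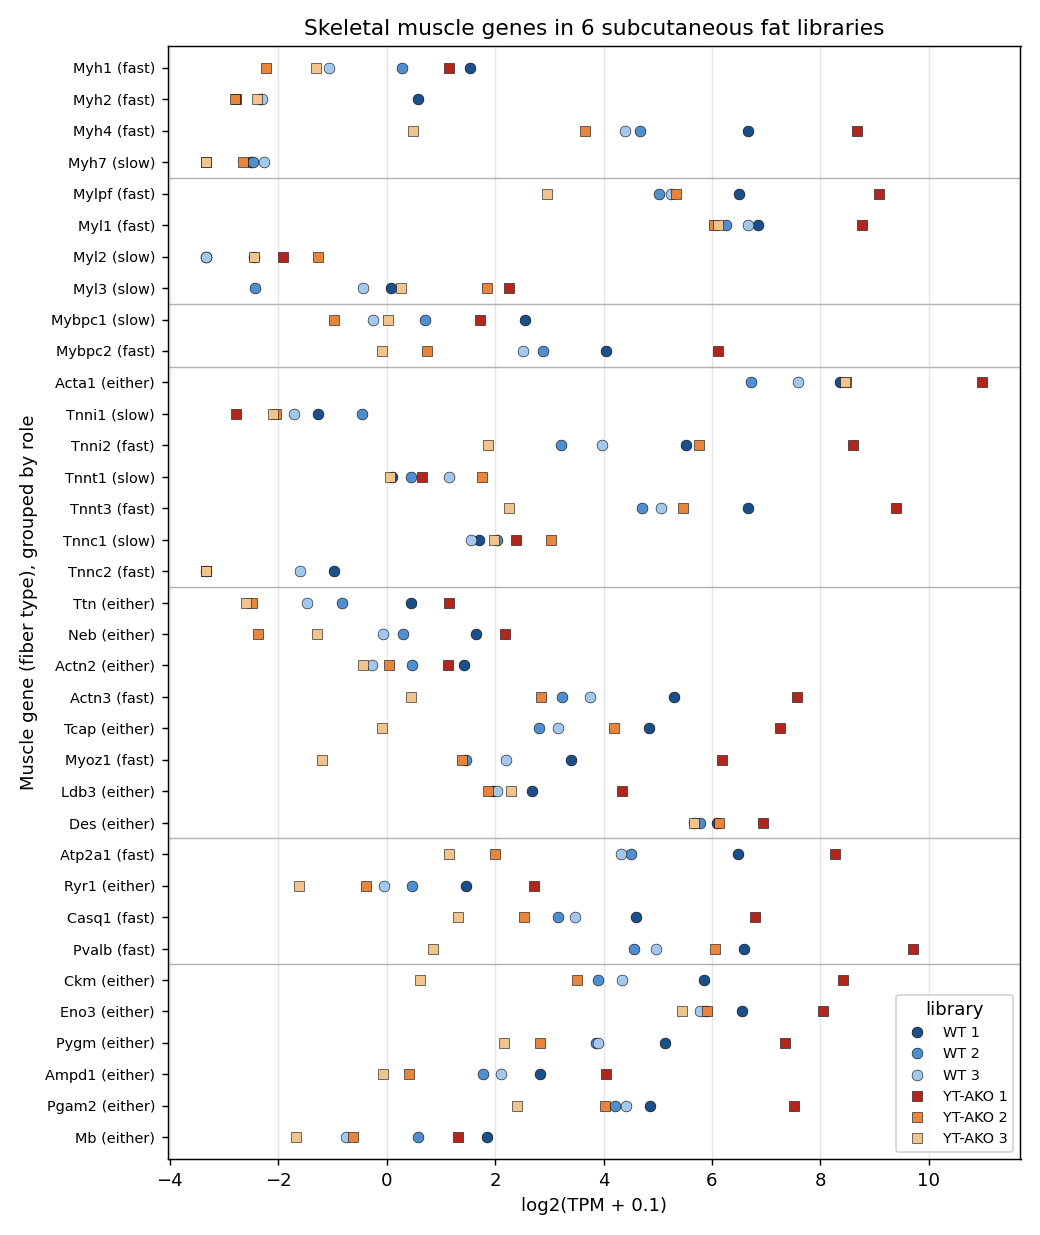
Level of each of the 35 muscle genes as log2(TPM + 0.1), with 1 point per library (circles WT, squares YT-AKO) and lines between the roles. YT-AKO 1 is the highest point for 24 genes on this scale and YT-AKO 3 the lowest for 21, and Acta1, Myl1, Des and Eno3 are the genes that keep a high level in every library.

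Library-scaled counts (CPM, normalized by TMM) were used to compare each gene between libraries. Of the 30 members with enough counts to be tested, 25 had their highest CPM in YT-AKO 1, against 10.4% of all 16807 genes tested, and 18 had their lowest in YT-AKO 3, against 12.3%. For 10 members over 90% of the CPM of the 3 YT-AKO libraries lay in YT-AKO 1, which held for 0.262% of all genes tested. The members were chosen with earlier results of these data known, so these counts describe the set and are no independent test. WT 1 was above both other controls in 31 of the 35 members. The order of the members by TPM was alike in all libraries (Spearman's rho over 35 genes 0.807 to 0.977, a description, since the genes share each library).

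In the fit of 3 YT-AKO against 3 WT libraries, at an adjusted p below 0.05, 3 of the 30 tested members were called higher, 0 were called lower and 27 did not pass. Among all genes tested 12.6% were higher and 9.01% lower, and 21.6% were called in either direction. The share of members called higher was thus near the background, and the share called lower was below it. At an unadjusted p under 0.05 there were 8 of the 30 members, and 6852 of all 16807 genes tested in either direction. DESeq2 called 6 members higher and also 0 lower, with 26.8% of all genes it tested called in either direction. The genes called in the main edgeR fit were Acta1, Myl3 and Des. The median log2 fold change of the tested members was 1.74, against -0.02 over all genes tested, but it was 0.48 with limma-voom and -0.47 without YT-AKO 1. Without that library 19 of the 30 members had a negative fold change, and the calls were 1 higher (Acta1; background 12.7%) and 2 lower (Neb and Atp2a1; background 8.24%). Leaving out WT 1, WT 2 or WT 3 left 0 members called by edgeR, with 0, 2 and 1232 calls among all genes tested. In those fits 6, 4 and 3 members were higher at an unadjusted p under 0.05, for which the share of all genes is not given. Leaving out YT-AKO 2 or YT-AKO 3 gave 5 and 9 members higher, while 30.8% and 15.3% of all genes tested were called in either direction.

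Every YT-AKO library lay above every WT library in CPM for 5 tested members (Acta1, Myl3, Tnnc1, Ldb3 and Des), against 25.7% of all genes tested. No tested member had every YT-AKO library below every WT library, against 25.8% of all genes.

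**Figure D2:**
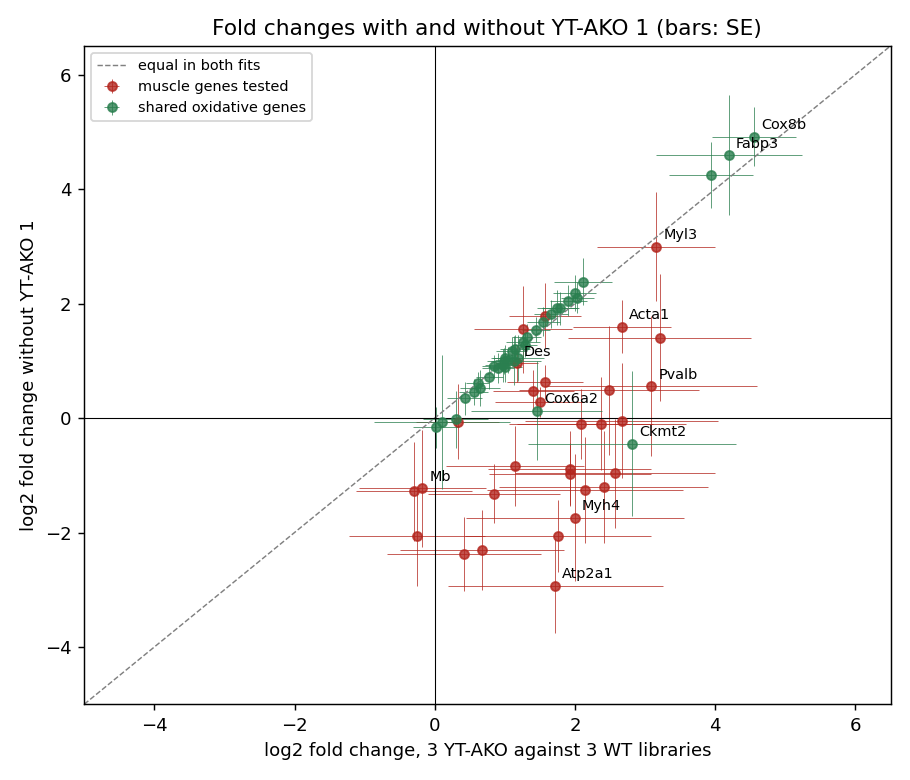
Log2 fold change of the 30 tested muscle genes (red) and 36 oxidative genes shared by muscle and thermogenic fat (green), with all libraries (x axis) and without YT-AKO 1 (y axis); bars are SE and the dashed line marks equal values. The green points stay near the line, except Cox6a2 and Ckmt2, while most red points drop, and Atp2a1 goes from 1.72 to -2.93.

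Among the thick filament genes, the heavy chains gave the widest range between libraries. Myh4 had 102, 25.3 and 21.1 TPM in the WT libraries and 411, 12.6 and 1.31 TPM in the YT-AKO libraries. YT-AKO 1 was thus the highest and YT-AKO 3 the lowest library, 314 times apart, with the controls between them. The fitted log2 fold change of 2.00 ± 1.55 (SE) did not pass the test (adjusted p = 0.358) and was -1.74 ± 1.11 without YT-AKO 1 (adjusted p = 0.277). Myh1 had 2.78, 1.12 and 0.380 TPM in WT and 2.12, 0.114 and 0.303 TPM in YT-AKO, so that WT 1 and not YT-AKO 1 was highest per length. Myh2 had 61 fragments in WT 1 and 2 to 4 in each of the other libraries, YT-AKO 1 included. Myh7, the heavy chain of slow fibers and of heart, had 0 to 5 fragments in every library, and Myh2 and Myh7 had too few counts to be tested.

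The fast regulatory light chain Mylpf had 90.1, 32.5 and 37.8 TPM in WT and 539, 40.4 and 7.72 TPM in YT-AKO. Myl1, the fast alkali light chain, had 115, 76.7 and 101 TPM against 435, 65.2 and 68.8 TPM, and so fell far less than Mylpf from YT-AKO 1 to YT-AKO 3 (6.32 times against 69.9 times). The slow light chain Myl3 was low throughout, with 0.962, 0.0849 and 0.636 TPM in WT and 4.68, 3.49 and 1.10 TPM in YT-AKO, and the groups did not overlap. Its log2 fold change was 3.16 ± 0.84 (adjusted p = 0.0373), and 2.996 ± 0.96 (adjusted p = 0.0644) without YT-AKO 1, and it did not pass with limma-voom (adjusted p = 0.0641) or a length correction (adjusted p = 0.0532). It rested on 1 to 12 fragments in each WT library and 14 to 69 in each YT-AKO library. Myl2, the slow regulatory light chain, had 0 to 6 fragments per library and was not tested.

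The myosin binding proteins C stiffen the thick filament in isoforms named for slow (Mybpc1) and fast (Mybpc2) fibers, though Mybpc1 is also made outside slow fibers. Mybpc2 had 16.4, 7.25 and 5.61 TPM in WT and 69.1, 1.57 and 0.845 TPM in YT-AKO. Mybpc1 had 5.79, 1.53 and 0.738 TPM in WT against 3.19, 0.411 and 0.923 TPM, and was highest in WT 1. YT-AKO 1 was thus highest for the fast isoform and second to WT 1 for the slow one, where it was 3.45 times the median of the other 5 libraries. Neither passed the test (adjusted p = 0.344 for Mybpc2 and 0.808 for Mybpc1).

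The thin filament held the most abundant member. Acta1 had 329, 106 and 192 TPM in WT and 2012, 355 and 350 TPM in YT-AKO, and every YT-AKO library was above every control. Its log2 fold change was 2.67 ± 0.70 (adjusted p = 0.0360), and 1.60 ± 0.46 (adjusted p = 0.0495) without YT-AKO 1. With a correction for gene length it did not pass (2.33, adjusted p = 0.0610). Unlike the fiber genes around it, Acta1 in YT-AKO 3 stayed at 350 TPM while Myh4 was at 1.31 TPM in the same library. Acta1 was 61.8% of the members' summed TPM in YT-AKO 3 and 19.6% to 41.1% in the other libraries.

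The fast troponins moved with the library. Tnnt3, the fast troponin T that ties troponin to tropomyosin, had 102, 26.0 and 33.1 TPM in WT and 672, 44.3 and 4.67 TPM in YT-AKO (log2 fold change 2.66 ± 1.37, adjusted p = 0.182). Tnni2, the fast inhibitory subunit, had 45.5, 9.15 and 15.6 TPM against 388, 54.3 and 3.54 TPM (3.21 ± 1.31, adjusted p = 0.107). For both genes the YT-AKO libraries spanned the controls on either side. Tnnc2, the fast calcium-binding subunit, had 0 to 2 fragments per library, but 74.0% of its exon bases are shared with Ube2c on the opposite strand, and fragments that overlap several genes were left uncounted, so its level could not be read.

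The slow troponins stayed low in all libraries and were highest in YT-AKO 2 where they could be tested. Tnnc1 had 3.15, 3.999 and 2.85 TPM in WT and 5.14, 8.04 and 3.86 TPM in YT-AKO (1.57 ± 0.52, adjusted p = 0.0622). Tnnt1 had 0.966, 1.26 and 2.11 TPM against 1.47, 3.28 and 0.948 TPM. Tnni1 had 1 to 13 fragments per library and was not tested. Heart muscle also expresses Tnnc1 and Myl3. The summed level of 6 heart markers was 7.36 to 10.9 TPM in WT and 6.72 to 13.6 TPM in YT-AKO, with YT-AKO 2 again highest; their part in the slow genes was not tested.

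The giant proteins titin (Ttn) and nebulin (Neb), which set the lengths of the sarcomere and of the thin filament, were low per length. Ttn had 1.26, 0.464 and 0.260 TPM in WT and 2.11, 0.0784 and 0.0657 TPM in YT-AKO. Neb had 3.05, 1.13 and 0.856 TPM against 4.44, 0.0930 and 0.313 TPM, and without YT-AKO 1 it was lower by -2.38 ± 0.65 (log2; adjusted p = 0.0453). In YT-AKO 1 both were only 1.68 and 1.46 times their level in WT 1, well short of the 6.60 times of Tnnt3. Across 33 members the ratio of YT-AKO 1 to WT 1 fell with exon length (Spearman's rho -0.639), and across 31 members that of YT-AKO 2 to WT 2 did so too (rho -0.690). These are descriptions over genes that share their libraries, and rho was -0.376 between fold change and length over all genes tested.

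The Z-disc genes Actn3, Myoz1 and Tcap, the first of which is the actinin of fast fibers, had 39.4, 10.4 and 28.3 TPM in WT 1. In YT-AKO 1 they had 189, 72.7 and 152 TPM, and in YT-AKO 3 1.27, 0.340 and 0.847 TPM. Actn2, the actinin that heart and slow fibers also use, varied less, from 0.635 TPM in YT-AKO 3 to 2.59 TPM in WT 1. Ldb3, a Z-disc adaptor, had 6.28, 3.81 and 3.99 TPM in WT and 20.1, 3.57 and 4.79 TPM in YT-AKO (1.57 ± 0.55, adjusted p = 0.0719).

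Des, the intermediate filament of all muscle including that of vessel walls, had 68.4, 54.9 and 50.6 TPM in WT and 123, 69.7 and 51.0 TPM in YT-AKO. Per length the groups overlapped, since YT-AKO 3 was level with WT 3. In CPM, the values were 66.8, 52.2 and 52.7 against 166, 149 and 70.4, and there the groups did not overlap. The log2 fold change of 1.17 ± 0.31 passed the test (adjusted p = 0.0377) and was 0.95 ± 0.32 (adjusted p = 0.0735) without YT-AKO 1, and 0.82 (adjusted p = 0.0800) when scaled by library totals alone. Markers of smooth muscle and pericytes summed to 142 to 170 TPM in WT and 106 to 153 TPM in YT-AKO; their part in the result for Des was not tested.

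Among the calcium genes the range between libraries was widest for Pvalb. Pvalb, the cytosolic calcium buffer of fast fibers, had 96.3, 23.7 and 31.2 TPM in WT and 836, 66.5 and 1.70 TPM in YT-AKO, a 493-fold range between YT-AKO 1 and YT-AKO 3. Atp2a1, the SERCA pump of fast fibers, had 89.7, 22.7 and 19.98 TPM in WT and 309, 3.89 and 2.13 TPM in YT-AKO. Both of the remaining YT-AKO libraries were thus below every control, and without YT-AKO 1 the log2 fold change was -2.93 ± 0.82 (adjusted p = 0.0473) against 1.72 ± 1.53 (adjusted p = 0.424) with it. Casq1, the calcium store protein, was at 2.39 to 24.2 TPM in 5 libraries and at 111 TPM in YT-AKO 1. Ryr1, the release channel, was at 0.228 to 2.65 TPM and at 6.46 TPM in YT-AKO 1.

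Energy genes of muscle were compared with the isoforms that other tissues use. Ckm, muscle creatine kinase, had 58.0, 14.9 and 20.1 TPM in WT and 343, 11.3 and 1.43 TPM in YT-AKO (2.41 ± 1.49, adjusted p = 0.255). As a share of Ckm plus Ckb, the creatine kinase of brain and fat, Ckm made up 54.0%, 23.2% and 28.2% in WT and 75.8%, 5.83% and 0.880% in YT-AKO. Ckb itself was at 49.3 to 51.4 TPM in WT and 110 to 182 TPM in YT-AKO. Of the exon bases of Ckm and Atp2a1, 15.5% and 21.9% are shared with other genes, so their shares may be understated. For SERCA, the share of Atp2a1 in Atp2a1 plus the broadly used Atp2a2 was 44.3%, 15.9% and 14.6% in WT and 77.0%, 11.6% and 2.50% in YT-AKO. For these pairs the muscle isoform outweighed the other in YT-AKO 1, and for creatine kinase also in WT 1. It stayed the lesser isoform in YT-AKO 1 for enolase (Eno3 at 20.6% of Eno3 plus Eno1), phosphoglycerate mutase (Pgam2 at 36.1%) and glycogen phosphorylase (Pygm at 36.1%).

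Pygm, Ampd1 and Pgam2, enzymes of glycogen breakdown, of AMP deamination and of glycolysis in muscle, had 162, 16.4 and 183 TPM in YT-AKO 1 and 4.39, 0.860 and 5.16 TPM in YT-AKO 3. Eno3, muscle enolase, changed less, with 94.4, 59.3 and 54.9 TPM in WT and 265, 59.6 and 43.6 TPM in YT-AKO. Mb, myoglobin, the oxygen store of oxidative fibers, was low and highest per length in WT 1, with 3.51, 1.40 and 0.498 TPM in WT and 2.39, 0.554 and 0.215 TPM in YT-AKO. Of its exon bases 31.9% are shared with Gm49540 on the opposite strand, so the level of Mb may be understated. None of these energy genes passed the test in either fit.

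Acta1, Myl1, Des and Eno3 kept a level where the other fiber genes were lowest. Together they were 90.8% of the members' TPM in YT-AKO 3, the library with the least Myh4, and 38.6% in YT-AKO 1. Their sum was 297 to 607 TPM in WT, 2835 TPM in YT-AKO 1, and 550 and 513 TPM in YT-AKO 2 and YT-AKO 3. The summed level of the 14 fast members was 736, 245 and 295 TPM in WT and 4035, 304 and 95.1 TPM in YT-AKO, so YT-AKO 3 was the lowest library by the fast genes but not by all 35 members. Myl1 belongs to both sums, and it gave 68.8 of the 95.1 TPM of the fast members in YT-AKO 3. Acta1, Myl1, Des and Eno3 were picked out after their values were seen.

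**Figure D3:**
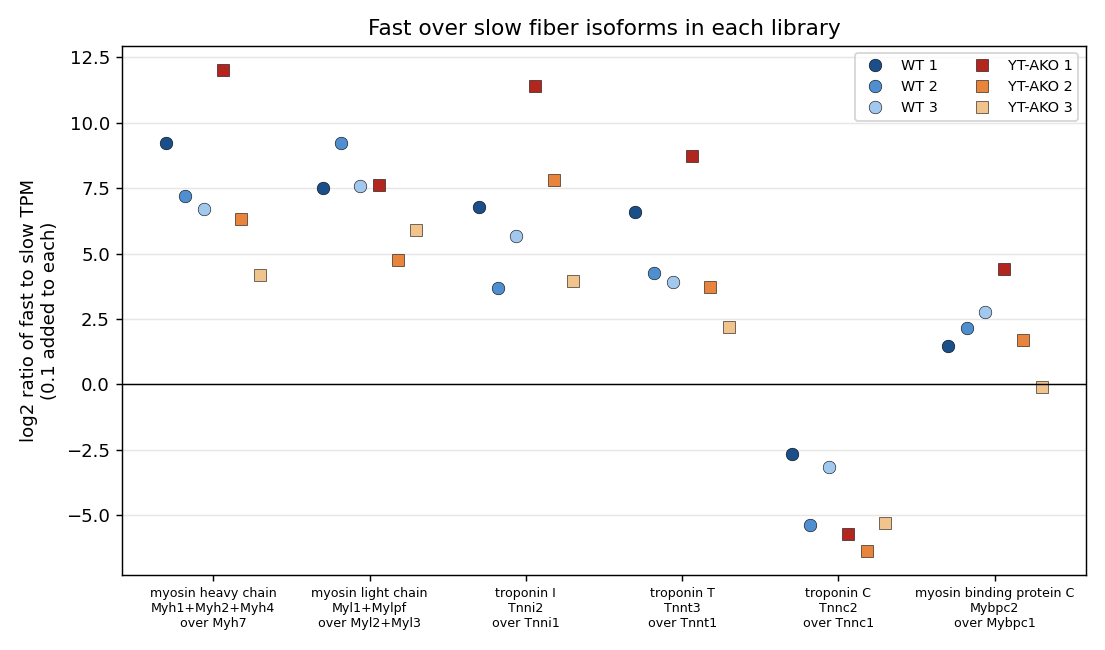
Log2 ratio of fast to slow fiber isoforms (TPM, 0.1 added to each) for 6 pairs, with 1 point per library (circles WT, squares YT-AKO). All pairs but troponin C, whose fast gene Tnnc2 could not be counted, lie above 0 in every library except Mybpc2 over Mybpc1 in YT-AKO 3, and YT-AKO 1 is the highest point for heavy chain, troponin I, troponin T and binding protein C.

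The fiber signal was fast in every library. As a share of the fragments of the 4 heavy chain genes, Myh4 made up 95.6% in WT 1 (95% exact Clopper-Pearson interval 94.9% to 96.2%), 94.7% in WT 2 (93.1% to 96.1%) and 96.9% in WT 3 (95.3% to 98.0%). In the YT-AKO libraries it was 99.4% in YT-AKO 1 (99.3% to 99.6%), 98.0% in YT-AKO 2 (96.7% to 98.9%) and 75.4% in YT-AKO 3 (63.1% to 85.2%), which rests on 65 fragments. The intervals cover counting error only, and up to 30.5% of the 50-base words of a heavy chain gene's transcripts recur in other genes, mostly in each other, where fragments may be lost or split. Myh7 had 0 of 15324 heavy chain fragments in YT-AKO 1, which allows a share of up to 0.0196% by a limit of 3 counts (exact upper bound 0.0241%), and 0 of 65 in YT-AKO 3, which allows 4.62% (exact upper bound 5.52%).

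The mix of fast heavy chains differed between the libraries with the most muscle RNA. Myh2 made up 1.56% of heavy chain fragments in WT 1 (1.19% to 2.00%) and 0.0131% in YT-AKO 1 (0.00158% to 0.0471%). Myh1 made up 2.76% in WT 1 (2.27% to 3.32%) and 0.542% in YT-AKO 1 (0.432% to 0.671%). Neither pair of intervals overlapped. YT-AKO 1 therefore held less Myh2 and Myh1 beside its Myh4 than WT 1 did. Genes of slow or oxidative fibers did not move together between these libraries. Mybpc1 and Mb were at 0.550 and 0.680 times their WT 1 level in YT-AKO 1, while Tnnt1, Tnnc1 and Myl3 were at 1.52, 1.63 and 4.87 times. The 7 slow members summed to 1.29 times WT 1, against 5.48 times for the 14 fast members. This compares a pair of libraries and not the genotypes.

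Over the groups, the log2 ratio of the fast heavy chains to Myh7 averaged 7.71 ± 1.34 (SD, n = 3) in WT and 7.50 ± 4.05 in YT-AKO, a difference of -0.21 (exact permutation test, p = 0.90). Its sign turned with the pseudocount, since Myh7 was close to 0. Fast over slow light chains averaged 8.09 ± 0.97 in WT and 6.09 ± 1.44 in YT-AKO, the largest fall among the pairs that could be counted (difference -1.99, exact p = 0.30). For troponin I the ratio was 5.37 ± 1.57 in WT and 7.72 ± 3.71 in YT-AKO (difference 2.34, exact p = 0.40). Troponin T (4.92 ± 1.45 against 4.88 ± 3.43) and binding protein C (2.14 ± 0.64 against 2.00 ± 2.27) differed by -0.04 and -0.14 (exact p = 1 for each). The 6 pairs had adjusted p-values of 0.80 to 1. The median ratio over the 6 pairs was 6.67, 3.97 and 4.80 in WT and 8.18, 4.24 and 3.07 in YT-AKO, with a group difference of 0.018 (exact p = 1). That median includes the troponin C pair, whose fast gene could not be read and which was the lowest pair in every library. Without the troponin C pair, left out after the data were seen, the difference of the medians was 0.25 (exact p = 0.90). The SD in YT-AKO was above that in WT for every pair except troponin C.

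Further muscle genes, listed with earlier results of these data known, also peaked in YT-AKO 1. Of 28 further genes that are restricted to muscle, 27 had their highest CPM in YT-AKO 1, against 10.4% of all genes tested. Some of the 28 had too few counts to be tested, such as Csrp3 with 3, Ankrd2 with 11 and Cav3 with 26 in YT-AKO 1. The sum of the 28 was 62.7, 30.5 and 27.9 TPM in WT and 202, 19.3 and 13.98 TPM in YT-AKO. The most abundant were Tmod4, Myot, Jsrp1, Mylk2, Mylk4 and Stac3. Myot, a Z-disc protein, had 52, 25 and 19 counts in WT and 291, 13 and 1 in YT-AKO. Mylk4, a myosin light chain kinase, had 220, 63 and 53 counts in WT and 725, 16 and 4 in YT-AKO. Of the regulators that switch on muscle genes, Myf6 had 50 counts, Myod1 16 and Myog 12 in YT-AKO 1, against at most 8, 3 and 0 in any other library. Myf5, the fourth of them, had 4 counts in YT-AKO 1, 12 in YT-AKO 2 and 0 elsewhere. Pax7, the marker of muscle stem cells, had 7 counts each in WT 1 and WT 2 and 0 in the other 4 libraries. Of all 52 further muscle genes 30 could be tested; Adssl1, an enzyme of AMP synthesis in muscle, was the only call, against 12.6% of all genes called higher (1.48 ± 0.24, adjusted p = 0.0177), and it had 24.1, 22.2 and 21.3 TPM in WT and 62.8, 25.2 and 35.1 TPM in YT-AKO. Without YT-AKO 1 the calls were Adssl1 and Myl4 higher (background 12.7%), and Mylk4 and Phkg1 lower (background 8.24%).

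The oxidative genes that muscle and thermogenic fat share were compared with and without the library rich in muscle RNA. With all libraries 26 of the 36 genes were higher and 0 lower in YT-AKO, against 12.6% and 9.01% of all genes tested, with a median log2 fold change of 1.17. Without YT-AKO 1, 21 were higher (background 12.7%), all of them among the 26, and the median was 1.05. The 5 genes no longer called were Esrra, Etfdh, Idh3a, Pdk2 and Sdha, whose log2 fold changes shifted by -0.11 to 0.00. The edgeR count fell to 0 without WT 1 and without WT 2, and in those fits 0 and 2 of all genes tested were called. At an unadjusted p under 0.05, 28 and 27 of the oxidative genes were still higher. In the main fit 29 of them and 6852 of all 16807 genes tested were under that unadjusted limit. The share of all genes under it is not given for the other fits. Within the YT-AKO group, YT-AKO 1 had the highest CPM for 7 of the 36 genes and the lowest for 15, and its ratio to the mean of the other YT-AKO libraries had a median of 0.970. The ratio was over 1.5 for 3 genes, namely Ckmt2 (27.6), Cox6a2 (5.60) and Pdk4 (1.77).

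**Figure D4:**
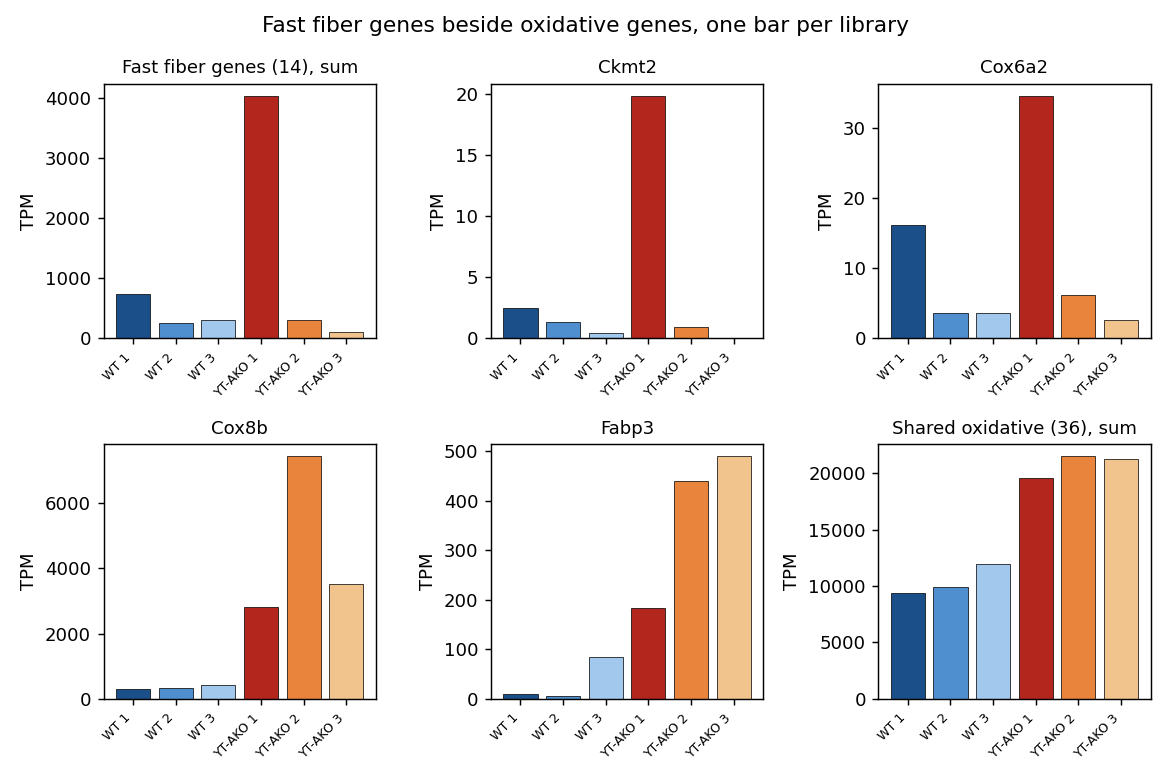
TPM per library of the 14 fast fiber genes (sum), of Ckmt2, Cox6a2, Cox8b and Fabp3, and of the 36 shared oxidative genes (sum), with 1 bar per library and each panel on its own axis from 0. Ckmt2 and Cox6a2 peak in YT-AKO 1 as the fast genes do, while Cox8b, Fabp3 and the oxidative sum are as high or higher in YT-AKO 2 and YT-AKO 3.

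Ckmt2, the mitochondrial creatine kinase of muscle, had 2.43, 1.28 and 0.375 TPM in WT and 19.9, 0.904 and 0 TPM in YT-AKO. Cox6a2, the subunit of cytochrome oxidase found in heart and skeletal muscle and in thermogenic fat, had 16.1, 3.57 and 3.55 TPM in WT and 34.6, 6.08 and 2.60 TPM in YT-AKO. Both were highest in YT-AKO 1, next in WT 1 and lowest in YT-AKO 3, as the fast genes were. They were the oxidative genes whose fold change shifted most without YT-AKO 1, Ckmt2 from 2.81 ± 1.48 to -0.45 ± 1.26 and Cox6a2 from 1.45 ± 0.94 to 0.13 ± 0.87, and neither was called in either fit.

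Cox8b, Cox7a1 and Fabp3 did not follow the muscle genes. Cox8b, a cytochrome oxidase subunit, had 309, 320 and 421 TPM in WT and 2806, 7431 and 3533 TPM in YT-AKO, so that YT-AKO 1 was the lowest of its group. Its log2 fold change was 4.56 ± 0.60 (adjusted p = 0.0166), and 4.92 ± 0.52 (adjusted p = 0.0254) without YT-AKO 1. Cox7a1, another subunit, had 43.8, 20.8 and 67.0 TPM in WT and 276, 553 and 336 TPM in YT-AKO (3.94 ± 0.60, adjusted p = 0.0171). Fabp3, a fatty acid carrier, had 9.95, 6.11 and 83.9 TPM in WT and 184, 441 and 490 TPM in YT-AKO (4.20 ± 1.04, adjusted p = 0.0315). For these 3 genes YT-AKO 3, the lowest library by the sum of the fast genes, was above YT-AKO 1, and the groups did not overlap. Slc25a4, the ADP and ATP carrier of muscle, heart and brown fat, rose by 1.26 ± 0.24 (adjusted p = 0.0200), and by 1.32 ± 0.27 without YT-AKO 1. Cpt1b, the muscle entry enzyme of fatty acids into mitochondria, had 0 to 1.14 TPM, and 81.4% of its exon bases are shared with another gene, so its level could not be read.

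Among the controls, WT 1 held 2.72 times the fast gene sum of WT 2 and WT 3 on average, but its oxidative genes were not higher. The median log2 ratio of WT 1 to the mean of WT 2 and WT 3 was -0.16 over the 36 genes, and 6 of them were higher in WT 1. The oxidative sum was 9419, 9865 and 11936 TPM in WT and 19568, 21471 and 21269 TPM in YT-AKO, where YT-AKO 1 was the lowest of its group. Markers of brown or beige adipocytes (Ucp1, Cidea, Elovl3 and Dio2) summed to 396 to 541 TPM in WT and 2780 to 2864 TPM in YT-AKO, where YT-AKO 1 had 2864 TPM.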

How the data were processed

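Bulk RNA-seq of scWAT was analysed from raw fragment counts per gene. Per the labels and the study's methods, total RNA was extracted with TRIzol, libraries were made with a NEBNext Ultra RNA kit and sequenced paired-end, and reads were aligned to mm10 with HISAT2. The counts were deposited by the authors as featureCounts (v2.0.1) output over GENCODE exons, not normalized, and per the file headers without strand, so that fragments overlapping several genes were left out. Totals of 17740987 to 21838493 per library set the precision. Symbols were matched for 55141 of 55401 gene IDs, and the 35 members for all.

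The main test was edgeR 4.0.16 (quasi-likelihood, TMM, filterByExpr with a minimum count of 10, Benjamini-Hochberg over 16807 genes), fitted to all 6 libraries, and a call was an adjusted p below 0.05. TPM used the deposited exon lengths. Ratios had 0.1 TPM added, and were compared by exact two-sided permutation tests over libraries. Scripts were tested on simulated data. The named genes were all members, 7 set oxidative genes and the 2 shifted most without YT-AKO 1, the 6 most abundant muscle-restricted further genes, the regulators and examples from the lists. The members and lists were chosen with earlier results of these data known. Promoter windows came from RefSeq (GRCm38.p6), and shared 50-base words from GENCODE transcripts. Alternatives were other normalizations, filters, tools (DESeq2 1.42.0, limma 3.58.1), thresholds, pseudocounts, a length correction, a replicate block and leaving out each library. Library replicates were checked by a chi-square test of their counts, and none was a copy of another.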

Additional observations from a re-analysis of the deposited data

How the results depend on the processing

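The direction of most muscle genes rested on YT-AKO 1. When single libraries were left out, the number of members higher in YT-AKO ran from 0 to 9 and of members lower from 0 to 2, the median log2 fold change of members from -0.47 to 2.31, the log2 difference of their summed TPM from -0.20 to 1.65, and the differences in the heavy chain ratio from -2.47 to 1.45 and in the median fast to slow ratio from -1.49 to 1.06. The lowest value of these 4 differences came without YT-AKO 1. With 2 libraries against 3 the exact test cannot go below 0.20. For the shared oxidative genes the count higher ran from 0 to 31, and their median from 1.05 to 1.31. Over the same fits the share of all genes tested that were called, in either direction, ran from 0% to 30.8%. Other settings moved the 3 members called higher to 6 with DESeq2, 12 with no filter on low counts and 1 with a length correction. Of all genes tested, 26.8%, 14.5% and 14.2% were called in either direction in those fits. At an adjusted p below 0.01 with a log2 fold change beyond 1, 0 members and 0 oxidative genes were higher in the main fit. The lowest adjusted p of any gene in that fit was 0.0073, so this cutoff lay near the lowest value reached. The study applied the cutoff with DESeq2, where the lowest adjusted p here was 5.8e-39. The oxidative median was 0.89 with library totals alone. The heavy chain difference of -0.21 became 0.70 on TMM-scaled CPM and 1.43 with a pseudocount of 0.01, and the median ratio difference became -0.039 with that pseudocount, since slow genes were near 0 in most libraries. The cause of the other changes was not tested.

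The labels number the replicates of both groups, but same-numbered libraries had correlated deviations of 0.126, -0.118 and -0.089, so the numbers were not taken as pairs. With the replicate block 0 members and 0 oxidative genes were called higher, and 33 genes of all tested were called. At an unadjusted p under 0.05, 6 members and 30 oxidative genes were higher with the block. In the main fit these were 8 and 29, beside 6852 of all 16807 genes tested in either direction. The median of members was 0.77 with the block and 0.59 with the length correction added, and Acta1, Myl3 and Des lost their calls (block adjusted p = 0.0584, 0.0872 and 0.0642). With the block and the length correction 0 members and 4 oxidative genes were higher, and 74 of all genes tested were called in either direction. Some genes had a positive log2 fold change in the main fit and a negative one in other settings. Of the members, Myh1 (-0.26), Mybpc1 (-0.29) and Mb (-0.18) were already negative in the main fit and are not listed here. Under the block the sign turned for Myh4 (-0.09), Mybpc2 (-0.21), Ttn (-0.56), Neb (-0.73), Atp2a1 (-0.70), Ampd1 (-0.062), Cpt1b (-0.38), Mylk4 (-0.58) and Stac3 (-0.15). With the length correction added it turned for Mybpc2 (-0.17), Neb (-0.021), Atp2a1 (-0.68), Ampd1 (-0.055), Cpt1b (-0.42), Myot (-0.029), Mylk4 (-0.18) and Stac3 (-0.34). Limma-voom turned the sign of Myh4 (-0.32), Mybpc2 (-0.27), Ttn (-0.60), Neb (-0.83), Atp2a1 (-0.65), Ampd1 (-0.14), Cpt1b (-1.05), Myot (-0.37), Mylk4 (-0.92) and Stac3 (-0.17). Library totals alone turned it for Actn2 (-0.020) and Cpt1b (-0.15).

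Leaving out libraries turned the sign of further genes, with log2 fold changes from -2.06 to 0.67 for Myh1, -1.74 to 3.08 for Myh4, -0.10 to 2.96 for Mylpf, -1.28 to 0.94 for Mybpc1, -2.06 to 2.35 for Mybpc2, -0.044 to 3.50 for Tnnt3, -2.31 to 1.53 for Ttn, -2.38 to 1.16 for Neb, -0.066 to 0.92 for Actn2, -1.25 to 2.98 for Actn3, -0.97 to 3.26 for Myoz1, -2.93 to 2.75 for Atp2a1, -0.83 to 1.71 for Ryr1, -0.88 to 2.48 for Casq1, -1.21 to 3.21 for Ckm, -0.98 to 2.47 for Pygm, -1.32 to 1.36 for Ampd1, -0.10 to 2.63 for Pgam2 and -1.23 to 0.74 for Mb. Outside the members the ranges were -0.45 to 3.52 for Ckmt2, -0.59 to 0.68 for Cpt1b, -1.77 to 2.61 for Myot, -1.11 to 3.16 for Mylk2, -3.05 to 2.39 for Mylk4 and -0.999 to 0.74 for Stac3. The lowest value came without YT-AKO 1 for all of these genes except Cpt1b, whose lowest came without YT-AKO 3. Since the level of Cpt1b could not be read, its fold changes and signs, here and in the paragraph above, are not interpreted.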
